A study of Mus musculus with 6 samples.

Results

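The genes described here are 10 genes that mark the mature fat cell: Adipoq, Lep, Retn, Cfd, Pparg, Lpl, Cd36, Fabp4, Cidec and Plin1. A probe that the array's gene annotation assigns to one of them was kept where 2 or more of the 6 arrays gave it a detection p-value under 0.01. The annotation listed 13 probes for 9 of the 10 genes, and none for Cfd, which is not analysed here. Of these, 5 probes of 5 genes passed (Adipoq, Lep, Lpl, Pparg and Cidec), out of 17410 probes and 10266 genes that passed in all. The other 8 probes did not.

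The arrays measured total RNA of whole dorsal skin wounds through the full thickness of the skin, taken 8 days after injury from mice with a C57/BL6 background. In the series, the amount of β-catenin was changed after injury in 2 opposite ways, each with its own control. The adenovirus GFP control (1 array) and the stabilized group (1 array) were mice aged 2 months, both carrying floxed exon 3 alleles of β-catenin (flox/flox). The control received an adenovirus with GFP, and the stabilized group an adenovirus with Cre, which removes exon 3, the part through which the protein is marked for breakdown. The tamoxifen control (2 arrays, age 4 months) and the knockdown group (2 arrays, age 5 months) carried floxed exons 2-6 on both alleles and received tamoxifen. The knockdown mice also carried Cre-Esr1, a Cre that tamoxifen switches on, and the controls did not. Age differed with genotype in this pair, so an effect of 1 month of age and of the knockdown cannot be told apart. The sources used here do not name the promoter that drives Cre. The labels call the samples biological replicates, without naming the animals. The p-values measure the spread between these samples, moderated by limma with that of all probes.

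White fat cells of the skin lie in a layer under the dermis and surround the hair follicles, and they return to a healing wound as new fat cells form. Their formation is driven by PPARγ, the nuclear receptor that Pparg encodes, together with C/EBP proteins, and in cultured precursor cells Wnt signalling through β-catenin is known to hold it back. A mature fat cell takes up fatty acids that lipoprotein lipase frees from lipoproteins, stores them as triglyceride in a single droplet coated by perilipin and CIDE proteins, and secretes hormones such as adiponectin and leptin. In whole wound RNA, a change in the number of fat cells and a change in RNA per fat cell cannot be told apart.

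The brightest of 4 passing probes of Ctnnb1, which encodes β-catenin, read 11.78 and 12.09 on the tamoxifen controls and 11.74 and 11.86 on the knockdown arrays on the log2 scale (difference -0.13 ± 0.17 SE, limma adjusted p = 0.819). The adenovirus arrays gave 11.58 (GFP control) and 11.50 (stabilized). The position of that probe relative to the removed exons was not known, and a probe outside them does not check the labels. The arrays detected between 15883 and 16681 probes each, with the fewest on the GFP control, and their median intensity lay between 129.4 and 140.9. All levels below are normalized log2 values, in which 1 unit is a 2-fold difference. Levels are compared between arrays for 1 probe and never between probes.

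Of the 5 detected genes, Adipoq, Lep and Cidec had 1 array standing far above the rest, and their promoters are shown to place them in the genome and to give the sequence around their starts. The windows run from 250 bases before to 50 bases after a RefSeq start on GRCm38.p6, 5′ to 3′ on the gene's strand. Capitals mark any match, on either strand, to AGGTCA (the half-site of the PPARγ and RXR pair), CTTTGA (the core bound by TCF and LEF, the partners of β-catenin on DNA) or TTGCNNAA (a motif of C/EBP proteins). Adipoq lies on chromosome 16 and has 1 start in the table, chr16:23146286-23146585 on the plus strand. Lep lies on chromosome 6, at chr6:29059971-29060270 on the plus strand. Cidec lies on the minus strand of the same chromosome with 2 starts, at chr6:113435711-113436010 and chr6:113434715-113435014.
Adipoq: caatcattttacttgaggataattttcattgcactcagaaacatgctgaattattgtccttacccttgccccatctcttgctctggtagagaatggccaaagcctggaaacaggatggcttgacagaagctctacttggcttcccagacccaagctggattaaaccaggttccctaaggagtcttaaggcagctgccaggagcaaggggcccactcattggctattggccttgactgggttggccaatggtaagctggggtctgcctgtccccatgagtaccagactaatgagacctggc
Lep: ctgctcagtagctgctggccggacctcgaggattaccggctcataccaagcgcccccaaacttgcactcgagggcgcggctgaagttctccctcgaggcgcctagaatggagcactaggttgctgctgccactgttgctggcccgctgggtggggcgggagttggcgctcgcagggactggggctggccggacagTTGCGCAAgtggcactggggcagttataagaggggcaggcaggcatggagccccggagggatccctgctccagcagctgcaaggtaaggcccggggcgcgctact
Cidec, chr6:113435711-113436010: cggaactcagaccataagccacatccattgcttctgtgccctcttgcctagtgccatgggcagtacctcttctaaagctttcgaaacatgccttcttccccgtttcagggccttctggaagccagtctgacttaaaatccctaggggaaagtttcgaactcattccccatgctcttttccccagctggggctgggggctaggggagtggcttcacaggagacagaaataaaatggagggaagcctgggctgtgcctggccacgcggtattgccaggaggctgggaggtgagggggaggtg
Cidec, chr6:113434715-113435014: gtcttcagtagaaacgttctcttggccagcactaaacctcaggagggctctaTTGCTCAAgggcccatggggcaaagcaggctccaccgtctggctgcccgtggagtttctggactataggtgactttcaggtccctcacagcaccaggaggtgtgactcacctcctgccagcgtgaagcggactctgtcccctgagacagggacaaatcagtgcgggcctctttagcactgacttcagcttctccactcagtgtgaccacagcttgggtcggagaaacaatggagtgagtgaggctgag
The Lep window holds TTGCGCAA 55 bases before the start, and the second Cidec window holds TTGCTCAA at position -198 from it. Neither the Adipoq window nor the first Cidec window holds any of these 3 motifs. RefSeq windows were found for 8 of the 10 genes (11 windows). TTGCNNAA was present in 4 of the 11 windows, those of Plin1, Lep, 1 start of Pparg and 1 of Cidec, and in 10.8% of the 32851 windows of all genes. AGGTCA was present in 3, those of Cd36 and the other 2 Pparg starts, and in 16.3% of all windows. CTTTGA was present in 0 of the 11 and in 5257 of all 32851. The pair of AGGTCA half-sites with 1 base between them was in 0 of the 11 and in 0.0396% of all. These matches describe letters in the window and do not show that a factor binds there.

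The secreted hormones come first. Adipoq encodes adiponectin, a hormone made almost wholly by fat cells. Its probe read 8.42 on the GFP control, 8.68 on the stabilized array, 8.93 and 9.08 on the tamoxifen controls, 8.97 on knockdown replicate 1 and 11.76 on knockdown replicate 2. In deposited intensities these were 351.3, 573, 616.1, 640.6, 658.5 and 3674. Knockdown replicate 2 stood alone. Its level was 6.38-fold above the next highest array, the widest such margin of all 17410 probes, while knockdown replicate 1 lay between the 2 controls. The groups overlapped, and the difference between their means, 1.36 ± 0.87 (SE, 2 against 2 arrays, 95% confidence interval -0.86 to 3.58), did not pass (limma adjusted p = 0.649). The SD was 1.97 within the knockdown group and 0.11 within the controls. Each SE and interval given is limma's moderated value, which borrows spread from the other probes. For Adipoq they are narrower than these SDs alone would give.

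Lep encodes leptin, the hormone by which fat tissue signals its energy store. Its probe read 7.27 on the GFP control, 6.53 on the stabilized array, 7.30 and 7.29 on the tamoxifen controls, 7.02 on knockdown replicate 1 and 8.81 on knockdown replicate 2. The intensities of the last pair were 247.4 and 562.8. Again knockdown replicate 2 was highest and knockdown replicate 1 fell outside the controls on the low side, so that the groups overlapped. Knockdown replicate 2 exceeded replicate 1 by 3.46-fold and the highest of the other arrays by 2.84-fold. The difference between group means was 0.61 ± 0.57 (SE, 95% confidence interval -0.83 to 2.06, limma adjusted p = 0.756). The stabilized array held the lowest leptin level of the 6, 1.66-fold below the GFP control.

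Retn encodes resistin, a further hormone of mouse fat cells. Its single probe was detected on 0 of 6 arrays, with log2 levels from 4.49 to 4.84. Cfd, the gene of adipsin (complement factor D), had no listed probe.

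**Figure D1:**
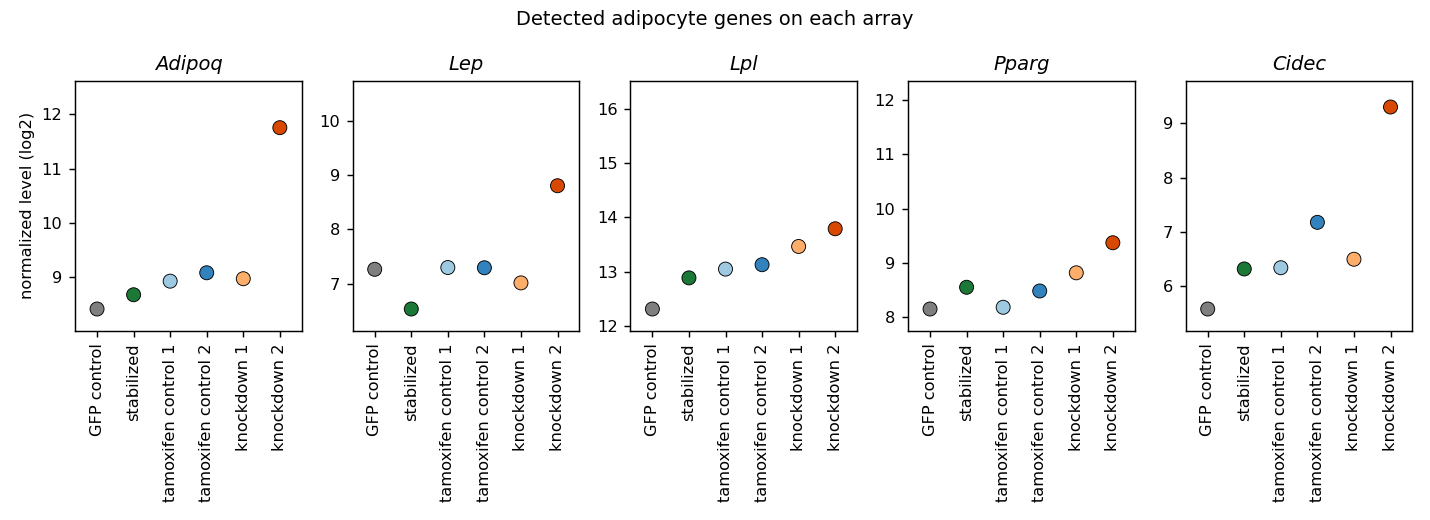
Normalized log2 level (vertical axis, a span of the same size in each panel) of the 5 detected adipocyte genes on each of the 6 arrays, 1 point per array. Adipoq, Lep and Cidec are high on knockdown 2 alone (11.76, 8.81 and 9.30), and both knockdown arrays lie above both tamoxifen controls for Lpl and Pparg.

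Pparg, the regulator of fat cell formation and of the genes of fat storage, showed another pattern. Its brightest probe read 8.15 on the GFP control, 8.55 on the stabilized array, 8.18 and 8.48 on the tamoxifen controls, 8.82 on knockdown replicate 1 and 9.37 on knockdown replicate 2. Both knockdown arrays lay above both controls and above both adenovirus arrays. The difference from the tamoxifen controls was 0.76 ± 0.24 (SE, 95% confidence interval 0.16 to 1.36), a 1.70-fold difference with a limma adjusted p of 0.367. A second Pparg probe read 4.69, 5.32, 5.12, 5.32, 5.57 and 6.09 in the same order of arrays and was detected on knockdown replicate 2 alone. The remaining Pparg probe was detected on 0 arrays (4.66 to 4.82), so the probes of this gene disagree in whether they show it at all.

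Lpl encodes lipoprotein lipase, which frees fatty acids from triglyceride in lipoproteins. Fat cells make it, as do muscle cells and macrophages. Its probe read 12.31 on the GFP control, 12.89 on the stabilized array, 13.05 and 13.13 on the tamoxifen controls, 13.46 on knockdown replicate 1 and 13.79 on knockdown replicate 2, or 3946, 8447, 9037, 8769, 12050 and 15000 in intensity. The groups did not overlap here either. The knockdown mean exceeded the control mean by 0.54 ± 0.17 (SE, 95% confidence interval 0.11 to 0.97), which is 1.45-fold, with a limma adjusted p of 0.371. A second Lpl probe was detected on 0 arrays (4.57 to 4.81). Cd36, the fatty acid transporter of the cell surface, and Fabp4, the fatty acid carrier of the fat cell's cytosol, were also detected on 0 arrays. The Cd36 probe lay between 4.73 and 5.11, and the Fabp4 probe between 4.53 and 4.78. A probe that is not detected gives no level, so these values do not show that the genes were silent in the wound.

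Cidec encodes the protein that fuses lipid droplets into the single large droplet of the white fat cell. Its probe read 5.58 on the GFP control, where it was not detected, 6.32 on the stabilized array, 6.34 and 7.18 on the tamoxifen controls, 6.50 on knockdown replicate 1 and 9.30 on knockdown replicate 2. The intensities ran from 152.6 on the GFP control to 750.5 on knockdown replicate 2, with 203.1 on knockdown replicate 1. The order of arrays resembled that of Adipoq. Knockdown replicate 2 exceeded the next highest array by 4.36-fold, second only to Adipoq among all 17410 probes, and knockdown replicate 1 lay between the controls. The difference between the group means was 1.14 ± 0.92 (SE, 95% confidence interval -1.19 to 3.47, limma adjusted p = 0.717). Plin1, the perilipin that coats the droplet of the fat cell and controls access of lipases, had 2 probes. Neither was detected on any array, with values from 4.56 to 5.11.

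Counted over the comparison of knockdown with tamoxifen control, 0 of the 5 adipocyte probes passed at a limma adjusted p under 0.05, where 0.00% of all 17410 probes did (the smallest was 0.177). By unadjusted p under 0.05, 1005 of all probes were higher, which is 5.77%, and 849 lower, which is 4.88%. Of the 5, 2 were higher (Lpl and Pparg) and 0 lower. A mean difference of at least 2-fold higher was seen for Adipoq and Cidec, against 1.78% of all probes. Both knockdown arrays were above both controls for Lpl and Pparg, against 22.7% of all probes. The difference was above 0 for 5 of 5, against 50.6% of all probes. The median difference was 0.76 for the 5 probes and 0.00 for all probes. For the 5 probes it was -0.03 without knockdown replicate 2 and 1.51 without knockdown replicate 1. Since a probe could pass the detection rule through the arrays where it is high, these counts describe the 5 detected probes and not all 10 genes.

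**Figure D2:**
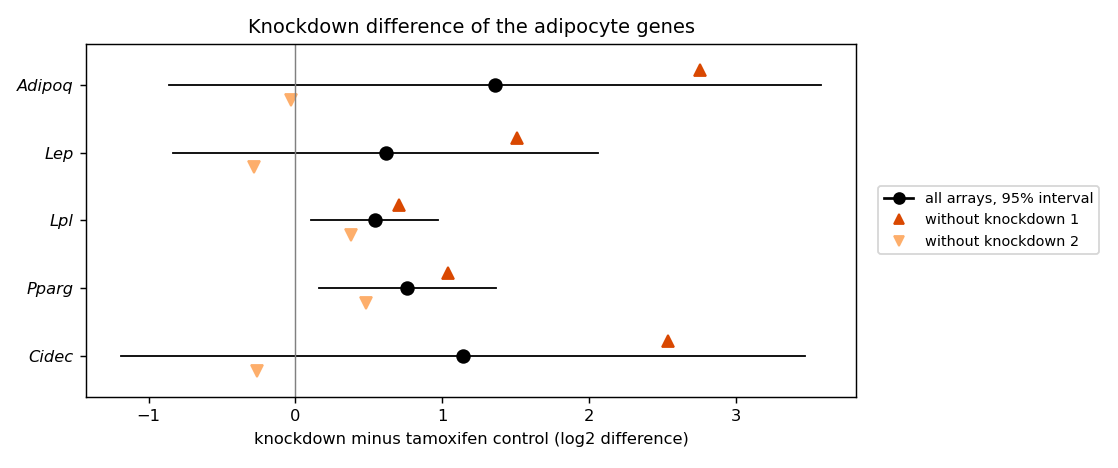
Knockdown minus tamoxifen control (log2 difference, horizontal axis) for the 5 detected genes, with the 95% confidence interval over all arrays (black) and the value without knockdown 1 (upward triangle) or without knockdown 2 (downward triangle). Without knockdown 2, Adipoq, Lep and Cidec lie at -0.03, -0.28 and -0.26, while Lpl and Pparg lie at 0.38 and 0.48.

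Knockdown replicate 2 gave the highest level of the 6 arrays for 5 of the 5 genes, against 18.9% of all probes. It stood at least 2-fold above knockdown replicate 1 for Adipoq, Lep and Cidec, against 0.770% of all probes, and at least 2-fold above each of the other 5 arrays for the same 3 genes, against 0.155% (27 probes). Without that array the difference from the tamoxifen controls was -0.03 for Adipoq, -0.28 for Lep and -0.26 for Cidec, so the direction of these 3 rests on 1 array. It stayed above 0 for Lpl (0.38, limma adjusted p = 0.929) and Pparg (0.48, limma adjusted p = 0.924). Over all left-out arrays, Lpl ranged from 0.38 to 0.71 and Pparg from 0.48 to 1.04.

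**Figure D3:**
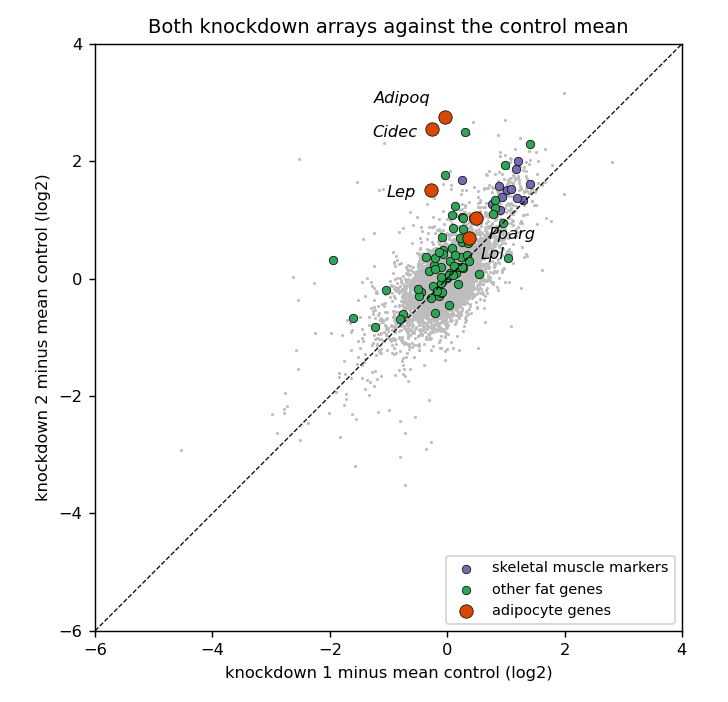
Log2 level on knockdown 1 (horizontal axis) and knockdown 2 (vertical axis), each minus the mean of both tamoxifen controls, with 1 point per gene over 10266 genes and the dashed line at equal values. Adipoq (-0.03 and 2.75) and Cidec (-0.26 and 2.54) lie far above the line, Lpl (0.38 and 0.70) and Pparg (0.48 and 1.04) nearer to it, and the skeletal muscle markers lie to the upper right.

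The adenovirus arrays compare stabilized β-catenin with its GFP control, with 1 array in each group, so that the differences have no replicate check. Adipoq was 1.20-fold, Pparg 1.32-fold and Lpl 1.49-fold higher on the stabilized array. Cidec was at least 1.12-fold higher, a lower bound against the dimmest signal called detected on the GFP control. Lep was 1.66-fold lower. The 4 genes detected on both arrays thus differed by less than 2-fold, and for Cidec the size is not known beyond its bound, while 3.80% of all probes were at least 2-fold higher and 4.64% at least 2-fold lower. The median difference was 0.40 for the 5 probes and 0.05 for all probes, with 4 of 5 above 0 against 55.1% of all.

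A slope was fitted over β-catenin status, set to -1 for knockdown, 0 for either control and 1 for stabilized β-catenin. The model system was a term. More arrays belong to the knockdown comparison, so the slope rests mainly on it and cannot show that a gene follows β-catenin in both directions. The slope was below 0 for 5 of 5 genes, against 48.3% of all probes, and passed for 0 of 5 (0.00% of all probes at a limma adjusted p under 0.05, where the smallest was 0.156). By unadjusted p under 0.05 it passed for 0 of 5 and for 10.3% of all probes. Adipoq had a slope of -0.82 ± 0.75 (SE, limma adjusted p = 0.719), Lep -0.65 ± 0.45, Cidec -0.51 ± 0.80, Pparg -0.37 ± 0.29 and Lpl -0.17 ± 0.26. Of these, only Lep was both lower on the stabilized array than on its control and higher in the knockdown mean than in the tamoxifen controls. Adipoq, Cidec, Pparg and Lpl were higher on the stabilized array, so their slopes below 0 come from the knockdown comparison already counted above. Without knockdown replicate 2 the slopes of Adipoq, Cidec and Lpl were 0.13, 0.46 and 0.03.

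Further genes of fat cell biology were taken in 7 lists, of which 72 of 92 genes were measured, each by its brightest probe. In knockdown wounds 48 were higher and 24 lower than in tamoxifen controls, where 53.3% of all genes were higher. At a limma adjusted p under 0.05, 0 passed. At an unadjusted p under 0.05, 9 were higher and 3 lower, where 625 of all 10266 genes were higher and 438 lower. The 9 are 12.5% of the 72, against 6.09% of all genes. Of the 9, Gpam, Gpd1, Sfrp5 and Prdm16 were not detected on either tamoxifen control. Fabp3, Cox8b and Cox7a1 are also genes of skeletal muscle. Here too a gene could pass the detection rule through the arrays where it is high. Knockdown replicate 2 was the highest array for 26 of the 72 genes (36.1%), against 20.3% of all genes. The median difference was 0.16, against 0.02 for all genes.

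The droplet and lipolysis genes gave 9 higher and 2 lower of 11 measured in knockdown wounds (81.8% higher, against 53.3% of all genes). By limma 0 passed at either adjusted or unadjusted p under 0.05, and the median was 0.37. Plin4, a perilipin of nascent droplets in fat cells, read 8.33 on the GFP control, 7.77 on the stabilized array, 8.68 and 8.63 on the tamoxifen controls, 8.62 on knockdown replicate 1 and 10.42 on replicate 2. Pnpla2, the lipase that starts triglyceride breakdown, read 10.41, 10.40, 10.41, 10.56, 10.57 and 11.57 in that order. Both were thus high on the same array as Adipoq. Their differences were 0.86 ± 0.57 and 0.59 ± 0.34 (SE, limma adjusted p = 0.663 and 0.609). Mgll, the monoglyceride lipase of the last step, differed by 0.56 ± 0.25 and Pnpla3, detected on 3 of the 6 arrays, by 0.37 ± 0.22. In the perilipin family, Plin2, which coats droplets in most cells, differed by 0.00 ± 0.28 and Plin3 by 0.22 ± 0.14, and Plin5 was not detected. In the CIDE family, Cidea differed by 0.66 ± 0.45 and Cideb was not detected. Without knockdown replicate 2 the list's median was 0.09, and without tamoxifen control 1 it was 0.10. On the stabilized array 2 of the 11 were at least 2-fold lower (18.2%, against 4.22% of all genes). These were G0s2, an inhibitor of Pnpla2 (6.19-fold), and Cidea (3.23-fold), while Hilpda, another inhibitor of that lipase, was 1.72-fold lower.

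Fatty acid and triglyceride synthesis genes gave 13 higher and 4 lower of 17 in knockdown wounds (76.5% higher, against 53.3% of all genes). By limma 0 passed by adjusted p and 2 were higher by unadjusted p (11.8%, against 6.09% of all genes), with a median of 0.27. The median was 0.14 without knockdown replicate 2. Thrsp, a fat and liver protein that goes with fatty acid synthesis, read 5.61 on the GFP control, 5.94 on the stabilized array, 5.08 and 6.08 on the tamoxifen controls, 5.89 on knockdown replicate 1 and 8.08 on replicate 2. Its level was detected on 2 of the 6 arrays and, like that of Adipoq, highest on knockdown replicate 2. Gpd1, which makes the glycerol phosphate backbone, was at least 1.37-fold higher in knockdown wounds (fitted difference 0.78 ± 0.21, limma adjusted p = 0.314). Gpam, which adds the first fatty acid to it, was at least 1.20-fold higher. These are lower bounds because the controls were not well above background. Mlxipl, a carbohydrate-sensing transcription factor, was detected on knockdown replicate 2 but not on knockdown replicate 1 or the tamoxifen controls, and is given no fold. Scd1, the desaturase that makes oleate, read 11.43 and 12.12 in the controls against 11.91 and 13.01 in the knockdowns. On the stabilized array Elovl6 was 3.13-fold, Scd1 2.52-fold and Dgat1, which completes triglyceride, 2.49-fold lower than on the GFP control. Fasn, Acaca and Pck1 were not detected.

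Uptake genes split evenly, with 7 higher and 6 lower of 13 (53.8% higher, against 53.3% of all genes) and a median of 0.01. Fabp3, the fatty acid carrier of heart and skeletal muscle, read 8.65 and 9.27 on the control arrays against 10.38 and 11.26 on the knockdown arrays, a difference of 1.85 ± 0.36 (SE, limma adjusted p = 0.196), and it was 3.41-fold lower on the stabilized array. Fabp5, the carrier of epidermis and macrophages, went the other way and read 11.75 and 11.63 against 10.94 and 11.10, a difference of -0.67 ± 0.15 (limma adjusted p = 0.227). Cav1, the caveolin of fat cells and endothelium, differed by -0.39 ± 0.17. On the stabilized array Cavin2 was 2.04-fold and Gpihbp1, which holds lipoprotein lipase on capillaries, 1.86-fold higher.

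Among transcription factors of fat cell formation, 7 were higher and 4 lower of 11 (63.6% higher, against 53.3% of all genes), with a median of 0.05. Nr1h3, the oxysterol receptor LXRα, read 8.47 and 8.41 in controls against 8.95 and 9.51 in knockdowns (0.79 ± 0.22, limma adjusted p = 0.317), so that its groups did not overlap, as for Pparg. Zfp467 differed by 0.30 ± 0.17. Zfp423 was detected on 2 of the 6 arrays and is given no fold. Of the C/EBP genes, Cebpa differed by -0.16 ± 0.14, Cebpb by -0.09 ± 0.16 and Cebpd by -0.19 ± 0.14 (SE, limma adjusted p = 0.737, 0.879 and 0.690). On the stabilized array Ebf2 was 3.46-fold, Tcf7l1, a DNA partner of β-catenin, 2.09-fold and Ebf1 1.77-fold higher.

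Of 8 measured genes listed as other secreted proteins, 4 were higher and 4 lower in knockdown wounds (50% higher, against 53.3% of all genes). The list also holds Lpgat1 (-0.18), which encodes an acyltransferase and not a secreted protein. Agt, the precursor of angiotensin, was not detected on the adenovirus arrays and read 6.77 and 6.56 in the tamoxifen controls against 7.48 and 7.87 in knockdowns (1.01 ± 0.19, limma adjusted p = 0.192). Sfrp5, a secreted Wnt inhibitor of fat cells, was at least 1.13-fold higher in knockdown wounds and at least 2.14-fold higher on the stabilized array, so it was above its control in both directions of β-catenin. Rarres2, which encodes chemerin, differed by -1.03 ± 0.43. Retnla, a resistin relative that macrophages make, was 4.65-fold higher, Apoe 1.70-fold higher and Nampt 2.16-fold lower on the stabilized array. Of 8 precursor cell genes, 4 were higher and 4 lower in knockdown wounds (50% higher, against 53.3% of all genes). Dpp4, a mark of early precursors, differed by -0.74 ± 0.16 (limma adjusted p = 0.227), Pi16 by -1.14 ± 0.43 and Dlk1, an inhibitor of fat cell formation, by 0.69 ± 0.34. Dpp4 was 2.39-fold, Fap 1.96-fold and Cd34 1.65-fold higher on the stabilized array.

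**Figure D4:**
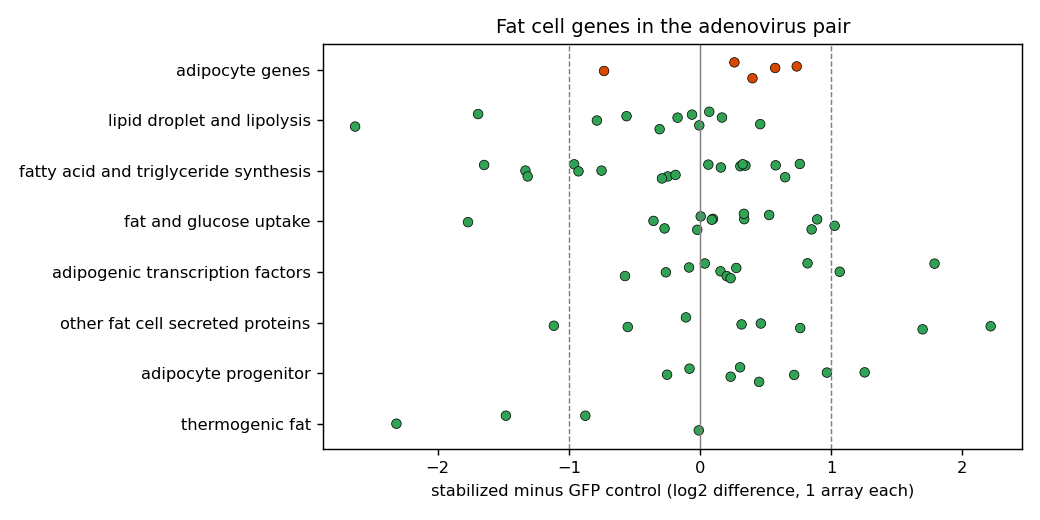
Stabilized minus GFP control (log2 difference, horizontal axis, 1 array each) for each measured gene of the 8 fat cell lists, with dashed lines at 2-fold; the vertical scatter within a list has no meaning. The measured differences of the 5 adipocyte genes lie within the lines, with Lep alone below 0 at -0.73; Cidec was not detected on the GFP control.

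The thermogenic list had 4 measured genes of 7, all higher in knockdown wounds, against 53.3% of all genes. By limma 0 passed by adjusted p and 3 were higher by unadjusted p under 0.05, against 6.09% of all genes. Ucp1, the uncoupler that defines brown fat, Ppargc1a and Dio2 were not detected. Cox8b differed by 1.46 ± 0.43 and Cox7a1 by 1.08 ± 0.21 (SE, limma adjusted p = 0.346 and 0.196), and they were 4.98-fold and 2.79-fold lower on the stabilized array. Both are respiratory chain subunits that skeletal muscle also expresses. Prdm16 was at least 1.32-fold higher in knockdown wounds.

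Markers of skeletal muscle moved with the groups. Of 12 muscle markers, 12 were higher in knockdown wounds, against 53.3% of all genes. By limma 0 passed at an adjusted p under 0.05. At an unadjusted p under 0.05, 11 were higher, against 6.09% of all genes. On the stabilized array 12 were at least 2-fold lower, against 4.22% of all genes. The mean level of the muscle markers, relative to each gene's own mean over the 6 arrays, was 0.06 on the GFP control and -2.01 on the stabilized array. It was -0.43 and 0.14 on the tamoxifen controls, 0.86 on knockdown replicate 1 and 1.38 on replicate 2. Of the brightest, Myl1 read 14.26 and 14.67 on the tamoxifen controls and 15.36 and 15.64 on the knockdown arrays. Acta1 read 13.84 and 14.52 on the controls and 14.94 and 15.45 on the knockdown arrays. On the same scale the 5 adipocyte genes stood at -0.70 on the GFP control, -0.45 on the stabilized array, -0.29 and -0.02 on the tamoxifen controls, -0.09 on knockdown replicate 1 and 1.56 on replicate 2. The muscle markers were thus high on both knockdown arrays and lowest on the stabilized array, and the mean of the adipocyte genes was high on 1 knockdown array and lowest on the GFP control. Among the single genes, Lpl and Pparg were highest on both knockdown arrays, as the muscle mean was, and Lep was lowest on the stabilized array. The part of skeletal muscle in the adipocyte values was not tested.

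Among the other marker lists, 6 sebaceous gland genes, a further source of lipid enzymes in skin, stood at -0.51 and 0.50 on the tamoxifen controls, 0.26 and 0.64 on the knockdown arrays and -0.99 on the stabilized array. The list shares Elovl3 with the thermogenic list. Its brightest genes, Mgst1 and Krt79, differed by 0.13 ± 0.18 and -0.09 ± 0.56 between knockdown and control. The 9 macrophage markers stood at -0.21 and -0.04 in knockdown wounds against 0.32 and -0.13 in tamoxifen controls, and the 10 endothelial markers at -0.23 and -0.08 against -0.07 and -0.09. Wound edge keratinocyte markers gave 8 of 9 lower in knockdown wounds, against 4793 of all 10266 genes, with a median of -0.79. By limma 0 passed by adjusted p and 7 were lower by unadjusted p under 0.05, against 438 of all genes. The brightest keratinocyte genes, Krt14 and Krt17, differed by 0.02 ± 0.14 and -0.61 ± 0.14. Hair shaft and root sheath markers varied most between replicates. They stood at -0.51 and 3.01 on the tamoxifen controls and at 0.39 and -1.57 on the knockdown arrays. The part of these cell types in the adipocyte values was not tested.

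**Figure D5:**
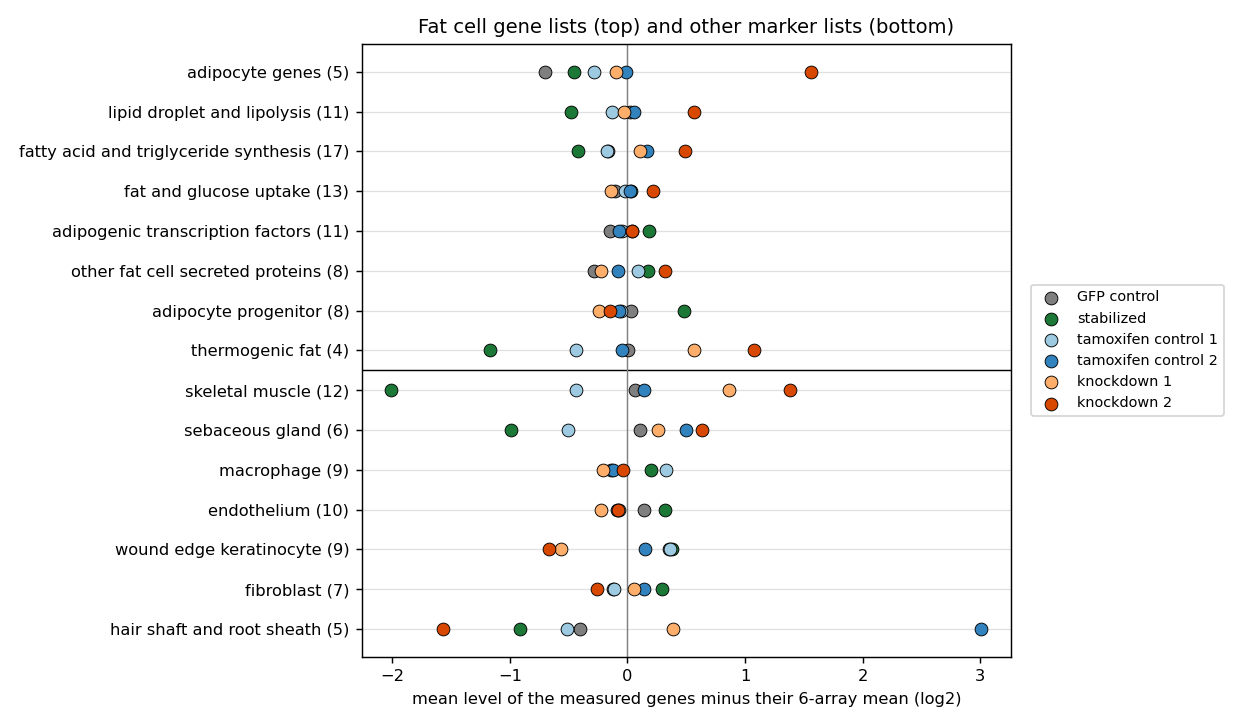
Mean log2 level of the measured genes of each list (number in brackets) minus their own mean over the 6 arrays (horizontal axis), with 1 point per array, for the fat cell lists (above the line) and marker lists of other cells (below it). The adipocyte genes are high on knockdown 2 alone (1.56), while the skeletal muscle markers lie at 0.86 and 1.38 on the knockdown arrays and at -2.01 on the stabilized array.

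The 10 genes whose levels followed the mean of the 5 adipocyte genes most closely over the 6 arrays were Pnpla2 and Smim27 (r = 0.981 each), Amy2a5, Ppp1r1a, Ndufb4, Plin4, Cdo1, Gal3st1, Gsta3 and Smarcd3 (r from 0.934 to 0.971). The 6 points share their arrays with the mean itself, and 1 array dominates them. Without knockdown replicate 2 the same correlations lay between 0.529 and 0.946. Of 2229 genes that varied enough to be considered, 23 (1.03%) had r over 0.9. These include Adipoq and Cidec, which are part of the mean. Cdo1, a cysteine dioxygenase that fat cells express, read 7.84 and 7.87 on the tamoxifen controls, 7.19 on knockdown replicate 1 and 9.38 on replicate 2. Ppp1r1a, an inhibitor of protein phosphatase 1, read 5.84 and 6.57 on the controls and 7.19 and 8.90 on the knockdowns, higher on both. The members were not alike without knockdown replicate 2, as r with their common mean was then 0.98 for Adipoq, 0.921 for Cidec, 0.905 for Lpl, 0.604 for Pparg and 0.164 for Lep. Each gene is part of that mean, which raises its r. Between pairs of members on the same arrays, r ran from -0.512 (Pparg and Lep) to 0.91 (Cidec and Adipoq).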

How the data were processed

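RNA of 6 wounds was measured on single-colour Illumina arrays, 1 per sample. The table deposited by the authors gives each probe's average bead intensity, not normalized, with a detection p-value, per the file headers. The log2 values of the other deposited table ranked the probes of each array as the intensities did (Spearman 1), had a median of 5.12 on every array and lay within 0.101 of the values computed here. The submitters' processing notes name R 2.14 and limma. The sources used here give no other software, slide or scan day.

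Computation used R 4.3.3 with limma 3.58.1. Background was corrected by neqc from the detection p-values and an offset of 16 added, which shrinks differences of dim probes. All 6 arrays were then quantile-normalized, which removes a shift of most genes. Of 45281 probes, 17410 had a detection p-value under 0.01 on at least 2 arrays. The annotation gave 1 gene for 34885 probes, several for 18 and listed 10378 not at all. Entrez numbers linked 34807 probes to current RefSeq symbols (GRCm38.p6), which also gave the promoters. Groups came from sample titles. Means of the 4 groups were fitted by probe (lmFit, eBayes, two-sided, Benjamini-Hochberg over 17410 probes). The fit was tested on simulated data in which both knockdown arrays shifted alike, which does not cover 1 array departing alone. In lists, the probe with the highest mean stands for its gene. Where a group was below background, a fold is a bound, set against each array's lowest detected signal. The number of arrays limits precision. Replicate numbers were checked for pairing and not used as a block.

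Named were all members, the Fabp, Cide and Plin families, up to 3 genes per list with the smallest p in the knockdown comparison and up to 3 with the largest adenovirus difference, the 10 genes most like the members' mean, and the 2 brightest markers of a counted list. Genes outside this rule (Thrsp, the C/EBP genes) were chosen after their values were seen. The members and lists were chosen with earlier results of these data known. Alternatives covered background, offset, scaling, the deposited log2 values, detection filter, 1 probe per gene, the arrays fitted and each left-out array.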

Additional observations from a re-analysis of the deposited data

Results flagged for a closer look

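A second Pparg probe, left out because it was detected on 1 array, gave a signal there above the detection threshold. It read 6.09 on knockdown replicate 2, with a deposited detection p-value of 0.0053, and 5.12 and 5.32 on the tamoxifen controls, where it was not detected. The array is the one on which the passing Pparg probe was also highest.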

How the results depend on the processing

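No adipocyte gene passed the adjusted threshold under any alternative run. The share of probes at least 2-fold apart in the adenovirus pair moved from 8.43% to 3.41% without background correction, 5.37% with an offset of 50, 18.1% with median scaling, 4.63% without a detection filter and 5.56% for probes detected on all 6 arrays. Median scaling put the all-probe median of that pair at 0.57 in place of 0.05, with Lpl then the 1 adipocyte gene past 2-fold, and 85.2% of the 2-fold probes were higher in place of 45%. The adipocyte genes stood 0.34 above all probes under it, against 0.35. It also gave 179 probes past the adjusted threshold in the β-catenin trend (48 higher, 131 lower), where quantile scaling gave 0. Without a detection filter, 4 adipocyte probes had an unadjusted p under 0.05 in the knockdown comparison in place of 2. That run held all 13 listed probes in place of 5, and 8 of the 13 had failed the detection rule. The median difference of the adipocyte probes was then 0.38 in place of 0.76.

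Leaving out 1 array at a time gave 0 to 2 probes past the adjusted threshold in the knockdown comparison (2 without tamoxifen control 1). It gave 0 to 5 adipocyte probes with an unadjusted p under 0.05 (0 without tamoxifen control 1 or knockdown 2, 1 without tamoxifen control 2, 5 without knockdown 1), and 0 to 1 in the trend. A group left with 1 array was assumed to vary like the others. The knockdown difference ranged from -0.034 to 2.76 for Adipoq, -0.28 to 1.51 for Lep and -0.26 to 2.54 for Cidec. The trend ranged from -1.46 to 0.13 for Adipoq, -0.16 to 0.028 for Lpl and -1.14 to 0.46 for Cidec. The median of the 5 probes ranged from -0.034 to 1.51 in the knockdown comparison and from -1.14 to 0.028 in the trend. Every lowest knockdown value and every highest trend value here is without knockdown 2.

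Replicate numbers were not shown to pair the arrays (correlation of deviations 0.0916). With the replicate block 0 probes passed and Adipoq differed by 1.36 ± 0.65 (limma adjusted p = 0.476), and it changed no call.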

Other observations

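Ranked over all 10266 genes by how far knockdown replicate 2 stood above the highest of the other 5 arrays, a list read off after the values were seen, Adipoq (2.67 on the log2 scale) and Cidec (2.12) came first. Ces1d, a carboxylesterase of fat and liver, followed at 2.05, then Thrsp at 1.99, Adig, a small protein of fat cells, at 1.86 and Plin4 at 1.74. Lep ranked 10 at 1.51. The first 15 genes also held Ppp1r1a (1.72), Krt24, a keratin (1.57), Amy2a5 (1.57), Cdo1 (1.51) and Gsta3 (1.41). Last came Myh4, a myosin of fast muscle (1.29), Fbp2 (1.25) and Tmod4 (1.18).

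Me1, the malic enzyme that supplies reducing power for fatty acid synthesis, was also picked after its values were seen. It was not detected on either adenovirus array (4.67 and 4.83) and read 7.98 and 8.46 on the tamoxifen controls and 8.33 and 8.29 on the knockdown arrays. The level differed between the model systems, which also differ in alleles, agent and age, and by 0.09 ± 0.20 between knockdown and control (limma adjusted p = 0.915).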
